A study of Homo sapiens with 4 samples.

Results

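Genes that encode the protein folding, stress sensing and degradation machinery of the endoplasmic reticulum (ER) were examined for sites of γH2AX, the phosphorylated form of the histone variant H2AX. This histone mark is widely used as a sign of DNA double-strand breaks. The list holds 40 genes of 19817 protein-coding genes considered, listed by gene function at a time when earlier results of these peaks were known. It was divided by textbook role into 6 sensors and their transcription factors, 16 chaperones and folding enzymes, 8 genes of the ATF4 arm and 10 genes of ER-associated degradation.

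The sites were mapped by CUT&Tag, in which an antibody guides a transposase that cuts and tags nearby DNA, in the human liver cancer line HepG2. The series has 4 groups of 1 sample each. Mock-induced cells (titled HEPG2-DMSO) and lipid overload-induced cells (titled HEPG2-PAOA) were each profiled for γH2AX and, as a control, with IgG. The sources used here do not give the dose, the agents behind the title PAOA or the length of treatment. Only the peak lists of the γH2AX libraries were used, and with the IgG samples not analysed here no value has an antibody background to be set against. The lists hold no expression, so the cell line could not be checked against marker genes.

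There were 8542 peaks in mock, with a median of 5 fragments over the summit, and 27296 after lipid overload, with a median of 9. These fragment numbers were worked out from the fold and p that the peak caller gave each peak. Judged by the background level and the fragment length worked out from each list, the lipid-overload library held an estimated 2.62 times as many fragments. The background levels alone differ 2.39 times. Weak sites therefore had a better chance of being listed after lipid overload. With 1 library per condition no difference below has a replicate check and no test was made. All intervals are exact 95% intervals, and because fragments copied by PCR are not separate molecules they allow for counting error alone. A gene without a listed peak has no known fragment number, so no fold is given for it.

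As background, the ER folds secreted and membrane proteins, and the liver secretes more of them than most tissues. When unfolded proteins build up, the sensors IRE1 (encoded by ERN1), PERK (EIF2AK3) and ATF6 start the unfolded protein response. IRE1 splices the mRNA of the transcription factor XBP1, cleaved ATF6 enters the nucleus, and PERK slows translation while favouring that of ATF4. ATF6 and XBP1 act on chaperone and degradation genes through short DNA elements, among them the ER stress response element (ERSE). Saturated fatty acids are known to activate this response in liver cells.

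Most of these genes had a γH2AX peak within 1 kb of an end after lipid overload, and many already had one in mock. After lipid overload 33 of 40 genes were marked in this way (82.5%, 67.2 to 92.7), against 43.4% of all protein-coding genes. In mock the count was 16 of 40 (40%, 24.9 to 56.7), against 13.4%. Both lists marked 15 genes (12.1% of all coding genes), the lipid-overload list alone 18 (31.4%), and the mock list alone 1 (1.34%), which was EDEM2. With the lipid-overload list limited to its 8542 best-ranked peaks, the length of the mock list, 27 of 40 members (67.5%) and 25.9% of coding genes were marked. With only peaks of −log10 q of at least 5, the mock count was 5 of 40 (12.5%), against 3.85% of coding genes.

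The shares differed in size between roles, with wide intervals. Of the chaperones and folding enzymes, 8 of 16 were marked in mock (50%, 24.7 to 75.3) and 15 of 16 in lipid overload (93.8%, 69.8 to 99.8). Degradation genes stood at 5 of 10 (50%, 18.7 to 81.3) and 9 of 10 (90.0%, 55.5 to 99.7). Sensors and their factors numbered 2 of 6 (33.3%, 4.33 to 77.7) and 4 of 6 (66.7%, 22.3 to 95.7). The ATF4 arm numbered 1 of 8 in mock (12.5%, 0.316 to 52.7) and 5 of 8 in lipid overload (62.5%, 24.5 to 91.5). The intervals of the gene-end shares of the 4 groups overlap in each list. The low mock share of the ATF4 arm holds for gene ends alone. With peaks inside the genes also counted, mock marked 4 of 8 genes of the ATF4 arm (50%). The same count gave 9 of 16 chaperones (56.2%), 5 of 10 degradation genes (50%) and 2 of 6 sensors (33.3%), against 24.2% of coding genes.

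**Figure D1:**
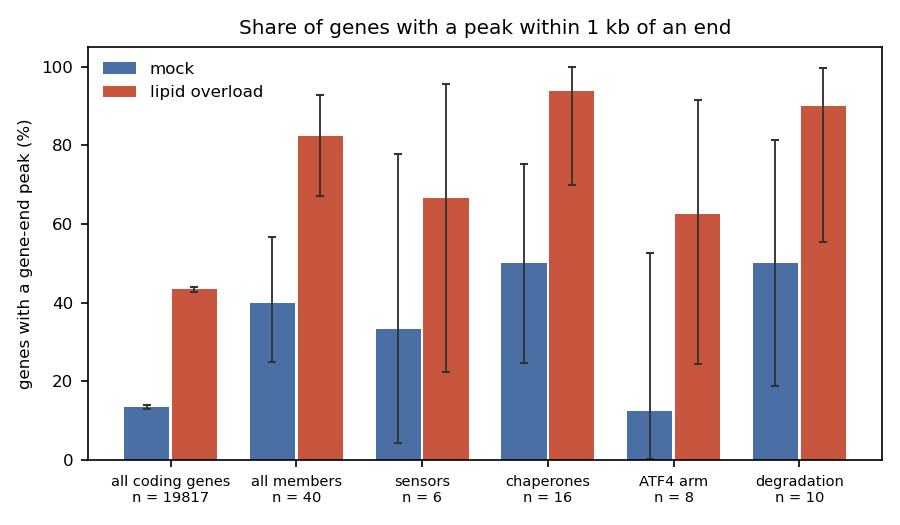
Share of genes with a peak within 1 kb of an end, in percent, for all 19817 protein-coding genes, the 40 ER genes and their 4 role groups, with mock in blue and lipid overload in red. Bars are shares and lines the exact 95% binomial intervals. Chaperones reach 93.8% and degradation genes 90.0% in lipid overload, against 43.4% of all coding genes.

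Known response elements lie in some of these promoters, and several are shown because peaks at these genes sit over them. Promoters of 37 of the 40 genes matched the RefSeq table (GRCh38.p14, the same coordinates as hg38), which gives the bases from 250 before to 50 after each listed start. Both strands were searched for exact matches of ERSE (CCAAT, any 9 bases, CCACG) and ERSE-II (ATTGG, any base, CCACG), elements bound in this response. ERSE was found in 7 of the 37 genes and in 21 of 15811 coding genes (0.133%), and in 0.0772% of all 34960 promoters. ERSE-II was found in 3 of the 37, in 15 coding genes (0.0949%) and in 0.0543% of promoters. Both elements are known from genes of this response, so a higher share among the ER genes was given in advance and is not a result. The upstream sequence of HSPA5, which encodes the chief ER chaperone BiP, runs 5′ to 3′ below from chr9:125241344-125241593 on the minus strand, with the ERSE in capitals. All of it lies under the lipid-overload peak, and the ERSE lies under both peaks.
HSPA5: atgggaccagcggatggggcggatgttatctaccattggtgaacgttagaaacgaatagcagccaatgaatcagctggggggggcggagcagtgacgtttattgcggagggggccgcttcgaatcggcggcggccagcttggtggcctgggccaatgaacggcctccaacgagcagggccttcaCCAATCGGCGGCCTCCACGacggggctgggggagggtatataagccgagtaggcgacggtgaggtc

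The matches of the other ER genes follow, each 5′ to 3′ on the strand of its gene with 10 flanking bases, and with searched elements in capitals. They come from chr12:103930206-103930349 (HSP90B1, plus strand), chr19:12938374-12938412 (CALR, plus), chr22:49918544-49918582 (CRELD2, plus), chr22:28800593-28800631 (XBP1, minus), chr5:179698768-179698806 (CANX, plus) and chr2:10812843-10812881 (PDIA6, minus) for ERSE. ERSE-II stands at chr11:119057264-119057403 (HYOU1, minus), chr22:21642104-21642134 (SDF2L1, plus) and chr16:56931956-56932045 (HERPUD1, plus).
HSP90B1: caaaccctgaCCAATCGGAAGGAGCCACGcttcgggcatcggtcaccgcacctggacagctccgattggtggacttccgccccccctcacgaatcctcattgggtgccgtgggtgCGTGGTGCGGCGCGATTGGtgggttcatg
CALR: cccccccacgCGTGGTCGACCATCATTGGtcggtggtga
CRELD2: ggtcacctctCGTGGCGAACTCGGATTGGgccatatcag
XBP1: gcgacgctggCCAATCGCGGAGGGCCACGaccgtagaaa
CANX: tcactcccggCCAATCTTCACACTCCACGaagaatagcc
PDIA6: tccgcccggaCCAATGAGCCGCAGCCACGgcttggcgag
HYOU1: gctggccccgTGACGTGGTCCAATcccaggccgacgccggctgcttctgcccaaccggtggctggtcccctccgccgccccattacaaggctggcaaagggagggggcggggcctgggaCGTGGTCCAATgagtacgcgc
SDF2L1: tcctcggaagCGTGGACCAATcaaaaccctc
HERPUD1: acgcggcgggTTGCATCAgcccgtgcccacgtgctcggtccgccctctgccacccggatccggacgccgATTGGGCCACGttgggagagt

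In HYOU1 the first run of capitals joins an ERSE-II to an overlapping UPRE (TGACGTGG), an element bound by XBP1. The UPRE was found in 3 of the 37 genes (DNAJC10, HYOU1 and VCP) and in 166 coding genes (1.05%). In DNAJC10 it lay under no peak of either list, and in VCP under a lipid-overload peak only. In HERPUD1 the first run is a reverse match of TGATGNAA, the core of the amino acid response element through which ATF4 acts. At all 10 genes with ERSE or ERSE-II a match lay under a lipid-overload peak, and at 6 of the 10 also under a mock peak. Among the 26 other coding genes with either element, 12 (46.2%) had a match under a lipid-overload peak and 2 (7.69%) under a mock peak. For comparison, a peak covered some base of a listed promoter in 38.2% of coding genes in lipid overload and 10.8% in mock, and in 28 (75.7%) and 14 (37.8%) of the 37 ER genes. The lipid-overload summit stood 7 bp from the middle of the ERSE in XBP1, 20 bp in CRELD2, 26 bp in HSPA5 and 70 bp in CALR. In HYOU1 it stood 5 bp from the upstream ERSE-II, and in HERPUD1 12 bp. In SDF2L1 the distance was 29 bp, and from the elements of HSP90B1 36 and 69 bp. The element was farther away in PDIA6, at 117 bp, and in CANX, at 261 bp. In mock the distances were 3 bp (upstream element of HYOU1), 19 (CANX), 20 (SDF2L1), 64 (HSPA5), 90 and 195 (HSP90B1) and 392 (HERPUD1). Lipid-overload summits of coding genes lay in the same stretch, with quartiles 170 bp upstream and 31 bp after the start. Whether summits lie nearer to these elements than to other promoter bases was not tested. A match describes letters in this window and not binding.

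Among chaperones and folding enzymes, BiP's gene HSPA5 was marked in both lists. It had a mock peak of 9 fragments (4.12 to 17.1) at chr9:125241311-125241449, with a fold of 6.67 and −log10 q of 5.33. In lipid overload the peak over the same site held 32 fragments (21.9 to 45.2) at chr9:125241264-125241702, with a fold of 10.2 and −log10 q of 21.8. The mock peak was narrower, 139 bp against 439 bp, and the summits stood 38 bp apart. A weaker mock peak of 5 fragments lay 484 bp upstream of the start, and the lipid-overload list had another of 9 fragments beyond the far end of the gene. The site adjoins HSPA5-DT, a noncoding RNA that starts beside the chaperone gene.

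HYOU1, which encodes a large ER chaperone that helps BiP exchange its nucleotide, went from 9 fragments (4.12 to 17.1) to 31 (21.1 to 44.0). Its summits, 177 and 175 bp upstream of the start, stood only 2 bp apart, in peaks at chr11:119057223-119057492 (mock, fold 6.01, −log10 q 4.32) and chr11:119057092-119057690 (fold 9.86, −log10 q 20.6). HSP90B1, which encodes the ER chaperone GRP94, had 7 fragments (2.81 to 14.4) in mock and 28 (18.6 to 40.5) in lipid overload. Its peaks began at the same base, at chr12:103930076-103930416 (fold 5.67, −log10 q 3.73) and chr12:103930076-103930557 (fold 9.69, −log10 q 18.6). These were among the strongest sites of the list in lipid overload.

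The disulfide isomerases, which make and reshuffle disulfide bonds, were marked unevenly. PDIA4 had 8 fragments (3.45 to 15.8) at chr7:149028595-149028939 in mock (fold 6.78, −log10 q 5.56) and 25 (16.2 to 36.9) at chr7:149028564-149028939 in lipid overload (fold 11.1, −log10 q 19.4). P4HB, the isomerase that is also a subunit of the collagen prolyl hydroxylase, had 7 fragments (2.81 to 14.4) at chr17:81860738-81860927 (fold 4.99, −log10 q 2.79) and 21 (13.0 to 32.1) at chr17:81860668-81861119 (fold 7.15, −log10 q 10.9). PDIA3, which works on glycoproteins with calnexin and calreticulin, had 12 fragments (6.2 to 21.0) at one end and 9 inside the gene, in lipid overload only. PDIA6 had no peak at either end of its longest annotated extent. It had 12 fragments (6.2 to 21.0) in lipid overload at chr2:10812504-10812923, 40 bp after a listed start that lies well inside the gene.

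The lectin chaperones calreticulin and calnexin, which hold glycoproteins until they fold, had different patterns. CALR had no mock peak at an end or inside, and the strongest chaperone peak in lipid overload, with 34 fragments (23.5 to 47.5) at chr19:12937963-12938584, a fold of 10.5 and −log10 q of 23.5. Divided by the depth ratio this is 13.0 fragments, while the weakest of the 258 mock peaks with a local background within 10% of the scaled one held 6. Among all lipid-overload peaks at gene ends with at least 30 fragments, 73.1% of 517 overlapped a mock peak, as did 3 of the 4 of the ER genes. CANX had mock peaks at 3 places. At its downstream end, which lies next to MAML1, 11 fragments (5.49 to 19.7) in mock at chr5:179732538-179732897 (fold 8.31, −log10 q 8.27) stood against 13 (6.92 to 22.2) in lipid overload at chr5:179732554-179733315 (fold 8.04, −log10 q 9.22). Around its listed starts inside the gene the numbers were 9 (4.12 to 17.1) and 23 (14.6 to 34.5). The weakest, of 6 fragments, was at the upstream end next to CBY3 in mock only.

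J-domain proteins, which steer BiP to its substrates, had gene-end peaks in all 4 cases after lipid overload. DNAJB9, whose start adjoins that of THAP5, had 7 fragments (2.81 to 14.4) and 13 (6.92 to 22.2). In lipid overload only, DNAJB11 had 19 fragments (11.4 to 29.7), DNAJC3 14 (7.65 to 23.5) and DNAJC10 7 (2.81 to 14.4). DNAJC3 also had an inside peak of 4 fragments in each list, at different places. SDF2L1, a partner of these proteins, had 5 fragments (1.62 to 11.7) and 16 (9.15 to 26.0). The secreted stress proteins MANF and CRELD2 had 14 (7.65 to 23.5) and 16 (9.15 to 26.0) fragments, in lipid overload only. MANF stood 1.61 kb from a peak at the end of RBM15B that both lists held.

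Sensors were marked in part. ERN1 had 7 fragments (2.81 to 14.4) in mock at chr17:64129891-64130323 (433 bp wide, fold 5.39, −log10 q 3.29) and 18 (10.7 to 28.4) in lipid overload at chr17:64129975-64130342 (368 bp, fold 10.1, −log10 q 14.3). EIF2AK3 had 7 (2.81 to 14.4) at chr2:88627750-88628145 (fold 5.76, −log10 q 3.87) and 15 (8.40 to 24.7) at chr2:88627516-88628302 (fold 8.84, −log10 q 11.1). The lipid-overload peak of EIF2AK3 was 787 bp wide and its summit 546 bp from that of mock. ATF6 had no peak at an end or inside in either list, although it spans 197751 bp, and the nearest peak outside it stood 7.45 kb away in lipid overload and 18.3 kb in mock.

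ATF6B, a relative of ATF6 that is also cleaved under stress, had 2 gene-end peaks in lipid overload and none in mock. The stronger, with 26 fragments (17.0 to 38.1) at chr6:32114044-32114340 (fold 10.2, −log10 q 18.4), lay 968 bp beyond the 3′ end. The other, with 16 (9.15 to 26.0) at chr6:32128309-32128497, lay 141 bp upstream of the start and near the end of FKBPL. XBP1 had a single narrow lipid-overload peak of 8 fragments (3.45 to 15.8) at chr22:28800526-28800692 (167 bp, fold 5.77, −log10 q 4.67). CREB3L3, a liver factor cleaved like ATF6, had no peak at an end or inside, and the nearest was 7.59 kb away in lipid overload.

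In the ATF4 arm the strongest peak was at PPP1R15B, which encodes the constitutive subunit of the phosphatase that reverses PERK's mark on the initiation factor eIF2α. It held 28 fragments (18.6 to 40.5) at chr1:204411731-204412308 in lipid overload (578 bp, fold 9.99, −log10 q 19.1), and no mock peak lay at that end. Inside the same gene, 13202 bp from the start, both lists had a summit at the same base, with 5 fragments (1.62 to 11.7) in mock and 18 (10.7 to 28.4) in lipid overload. Its stress-induced counterpart PPP1R15A had no peak at an end or inside in either list, and the nearest stood 24.1 kb away in lipid overload and 238 kb in mock.

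DDIT3, which encodes the death-promoting factor CHOP, had 6 fragments (2.20 to 13.1) in mock at chr12:57520009-57520263 (fold 4.96, −log10 q 2.76) and 22 (13.8 to 33.3) in lipid overload at chr12:57520471-57520776 (fold 8.42, −log10 q 13.5). These peaks do not overlap, with summits 467 bp after and 38 bp before the nearest listed start, in a stretch shared with MBD6. SESN2, a regulator of nutrient signalling, had 15 fragments (8.40 to 24.7) at chr1:28259206-28259742 (537 bp, fold 6.72, −log10 q 7.90) and a second gene-end peak of 9, in lipid overload only, and a mock peak of 6 inside the gene. ATF4 itself had 9 fragments (4.12 to 17.1) at chr22:39520827-39520998 (172 bp, fold 4.49, −log10 q 3.06), in lipid overload only.

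ASNS, the asparagine synthetase and a classical ATF4 target, showed how the choice of gene end matters. Its longest annotated extent begins at a distant end where lipid overload had 4 fragments (1.09 to 10.2) at chr7:97928509-97928656 (fold 3.71, −log10 q 1.77). Around the listed starts both lists had a peak, with 6 fragments (2.20 to 13.1) in mock at chr7:97872311-97872534 and 10 (4.80 to 18.4) in lipid overload at chr7:97872285-97872546. Both cover the amino acid response core, shown in capitals with 10 flanking bases from chr7:97872459-97872486 on the minus strand, 5′ to 3′, because ATF4 is known to act on this gene through it.
ASNS: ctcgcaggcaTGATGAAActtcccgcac

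The core was found in 3.62% of promoters, in 3.61% of coding genes and in 4 of the 37 ER genes (ASNS, CHAC1, HERPUD1 and PPP1R15B). CHAC1, which degrades glutathione, and TRIB3, a pseudokinase, both ATF4 targets, had no peak at an end or inside in either list. For CHAC1 the nearest peaks were 4.58 kb away in lipid overload and 87.3 kb in mock, and for TRIB3 22.3 and 32.8 kb.

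Degradation genes held the best-ranked peak of the whole list, at EDEM1, one of 3 related proteins that trim mannose from misfolded glycoproteins. EDEM1 had 10 fragments (4.80 to 18.4) in mock at chr3:5187341-5187698 (358 bp, fold 7.51, −log10 q 6.80) and 34 (23.5 to 47.5) in lipid overload at chr3:5187394-5187666 (273 bp, fold 16.0, −log10 q 32.9). This lipid-overload peak stood at rank 364 of 27296. EDEM3 had 6 fragments (2.20 to 13.1) at chr1:184754885-184755112 (228 bp, fold 5.94, −log10 q 4.68) and 13 (6.92 to 22.2) at chr1:184754847-184755238 (392 bp, fold 9.12, −log10 q 11.0). EDEM2 had a weak mock peak of 5 fragments (1.62 to 11.7) at chr20:35147255-35147424 (170 bp, fold 4.64, −log10 q 2.46), inside the read-through gene MMP24-AS1-EDEM2, and none in lipid overload. The closest lipid-overload peak to EDEM2 was 22.7 kb away. EDEM1 and EDEM3 thus shared a pattern, with overlapping peaks of both lists at the start, and EDEM2 differed from them.

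HERPUD1, a membrane protein that organises the degradation complex, had the most fragments of the list in mock. It had 12 (6.2 to 21.0) at chr16:56931808-56932477 (670 bp, fold 7.54, −log10 q 7.21) and 26 (17.0 to 38.1) in lipid overload at chr16:56931775-56932608, the widest peak of these genes (834 bp, fold 7.86, −log10 q 14.4). The mock summit lay 280 bp after the start and the lipid-overload summit 100 bp before it. The ubiquitin ligase gene SYVN1 and its partner SEL1L had gene-end peaks in lipid overload only. SYVN1 had 18 fragments (10.7 to 28.4) at chr11:65135110-65135260 (151 bp, fold 7.21, −log10 q 9.79), 700 bp upstream of the start. SEL1L had 12 (6.2 to 21.0) at its start and 6 beyond the other end.

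The derlins, which take part in moving proteins out of the ER, varied more. DERL3 had 21 fragments (13.0 to 32.1) at chr22:23839157-23839425 (269 bp, fold 6.32, −log10 q 9.51), in lipid overload only. DERL2, next to MIS12, had 3 separate gene-end peaks of 10, 11 and 15 fragments in lipid overload and none in mock, the strongest at chr17:5486311-5486509 (199 bp, fold 7.97, −log10 q 9.78). DERL1 had 6 fragments (2.20 to 13.1) in mock, against 7 at the overlapping lipid-overload peak and 8 (3.45 to 15.8) at another. VCP, the ATPase that pulls substrates from the membrane, had peaks of 10 (4.80 to 18.4) and 8 fragments around its start in lipid overload only, the stronger near the end of FANCG.

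**Figure D2:**
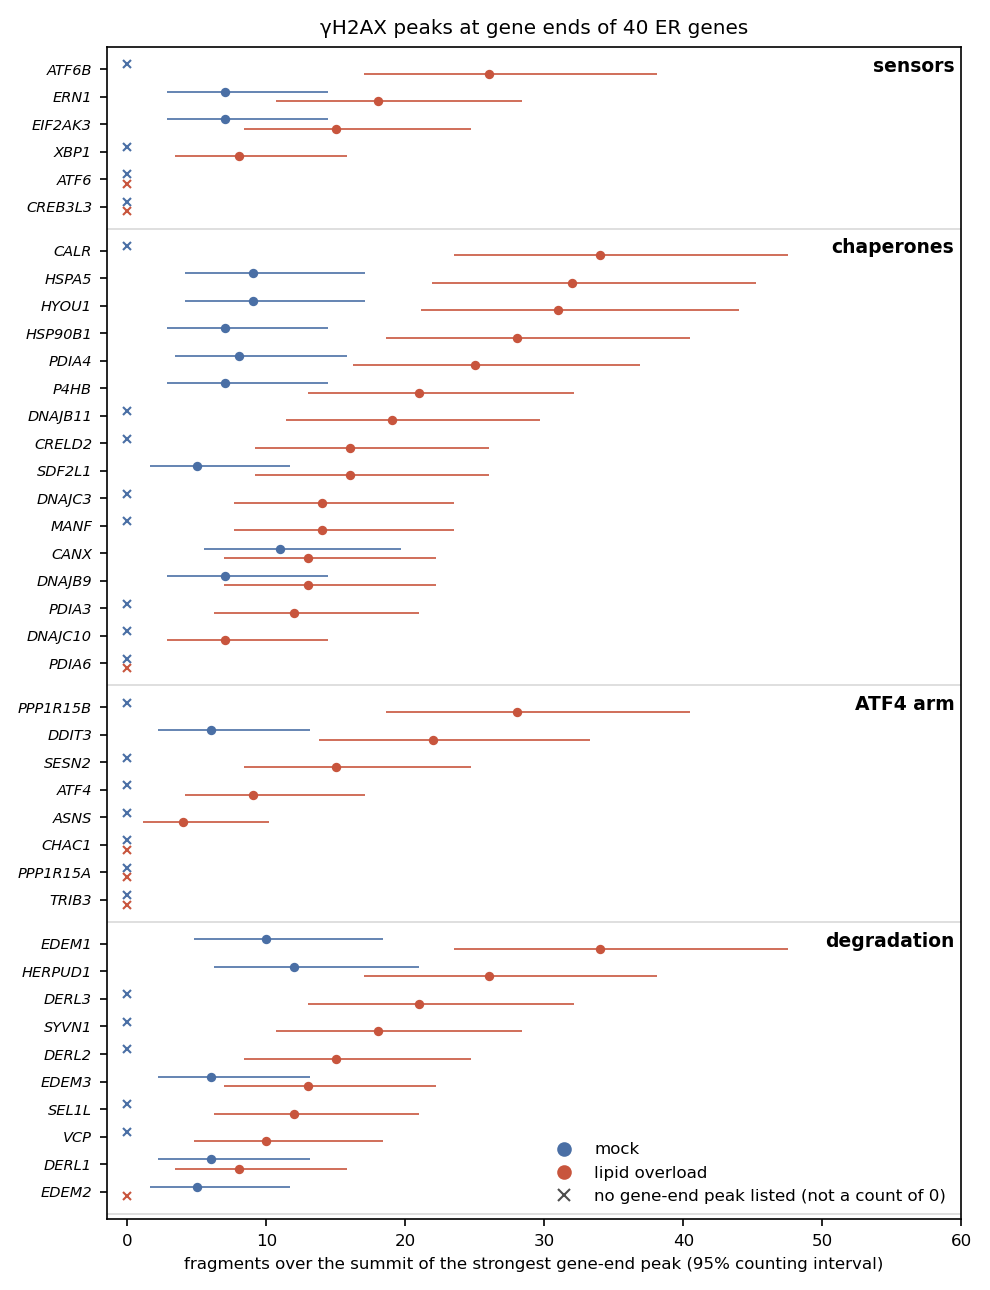
Fragments over the summit of the strongest gene-end peak of each of the 40 genes, grouped by role, with mock in blue, lipid overload in red and exact 95% Poisson intervals as lines. Crosses mark genes with no listed gene-end peak, which is not a count of 0. Mock peaks lie between 5 and 12 fragments and lipid-overload peaks between 4 and 34.

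For the 15 genes marked in both lists the ratios of fragments lay on both sides of the depth ratio, with wide intervals. The median over their strongest gene-end peaks was 7 fragments in mock and 21 after lipid overload. The ratio had a median of 3.0, from 1.18 at CANX to 4.0 at HSP90B1. Over the 2390 coding genes marked in both lists the medians were 7, 18 and 2.57. The ratio was above 2.62, the depth ratio, in 8 of the 15 genes (53.3%), against 48.4% of the 2390. At HSP90B1 it was 4.0 (1.71 to 10.8), at HSPA5 3.56 (1.66 to 8.47), at EDEM1 3.4 (1.64 to 7.72) and at CANX 1.18 (0.489 to 2.91). The CANX value is that of its downstream end next to MAML1. Around the listed starts of CANX, inside the gene, the ratio was 2.56 (1.14 to 6.28). All 15 intervals include 2.62, but they are wide. The part of depth in the rise was not tested. The strongest peaks of the 2 lists overlapped in 13 of the 15, the others being DDIT3 and DERL1, and in 87.1% of the 2390. A gene enters this comparison only if both lists name a peak, so the ratios describe these genes and not the list as a whole.

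**Figure D3:**
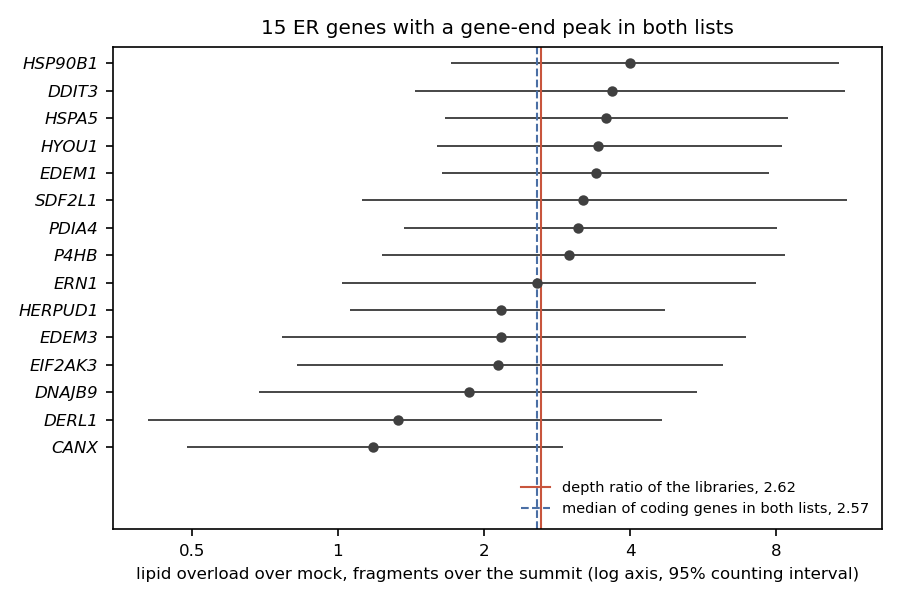
Ratio of lipid-overload to mock fragments over the summit of the strongest gene-end peak (log axis) at the 15 genes marked in both lists, with exact conditional 95% intervals. The red line is the depth ratio of 2.62 and the dashed line the median of 2.57 over coding genes. All 15 intervals cross the red line. The CANX value is that of its downstream end next to MAML1.

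The 18 genes marked at an end in lipid overload only had a median of 14.5 fragments there, against 21 for the 15 genes in both lists. Over all coding genes the corresponding medians were 11 and 18. CALR (34 fragments), PPP1R15B (28), ATF6B (26) and DERL3 (21) were the strongest of the 18, and ASNS (4), DNAJC10 (7) and XBP1 (8) the weakest. Divided by the depth ratio, 13 of the 18 were at or above the weakest mock peak with a like background and 5 were below theirs. No such count is given here for the 6220 coding genes marked in lipid overload only. Neither these counts nor the intervals below can therefore be called particular to the ER genes. Among the 13, CALR (13.0 against 6), PPP1R15B (10.7 against 6) and ATF6B (9.91 against 5) had scaled intervals wholly above it, and the scaled intervals of the other 10 included it. PDIA3 and SEL1L, for example, came to 4.57 (2.36 to 8.0) against 3. Below were VCP (3.81 against 4), ATF4 (3.43 against 5), XBP1 (3.05 against 4), DNAJC10 (2.67 against 3) and ASNS (1.52 against 3), and all 5 scaled intervals again included the weakest mock peak. The part of depth in the absence of a mock peak was not tested.

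The peaks of these genes lay mostly just upstream of the start. Of the 37 genes with a listed start, 31 (83.8%) had a lipid-overload peak within 1 kb of one, against 45.5% of coding genes, and 16 (43.2%) had a mock peak there, against 14.0%. In both lists 15 had one, against 12.7%. The summit of the strongest such peak stood a median of 125 bp upstream in lipid overload, and 26 of 31 summits (83.9%) were upstream. Over all 7188 coding genes marked there the median was 79 bp upstream and 69.5% were upstream. For the 16 mock peaks the median was 135 bp upstream and 11 (68.8%) were upstream, against 64.3% of 2206. The median width of these peaks was 376 bp after lipid overload, against 290 bp for coding genes, and 305.5 bp in mock, against 215 bp.

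**Figure D4:**
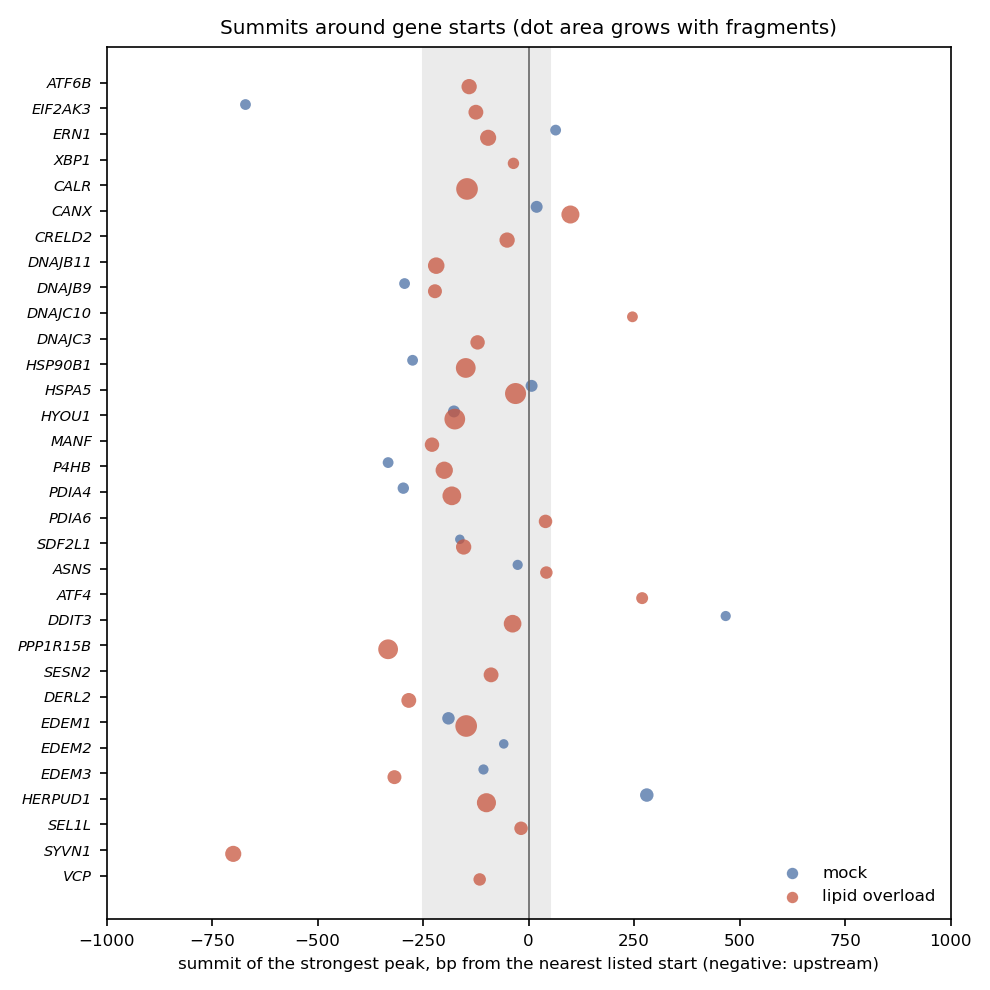
Position of the summit of the strongest peak within 1 kb of a listed start, in bp from the nearest start (negative is upstream), for each gene with such a peak, with mock in blue and lipid overload in red. Dot area grows with fragments, and the grey band is the promoter window from 250 before to 50 after the start. In lipid overload 26 of 31 summits are upstream.

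Several of these ends are shared with a neighbour, and a peak there cannot be assigned to 1 gene. Of the 33 genes marked in lipid overload, 9 had their strongest gene-end peak within 1 kb of an end of another coding gene. These were CANX with MAML1, CRELD2 with ALG12, DDIT3 with MBD6, DERL2 with MIS12, DNAJB11 with TBCCD1, DNAJB9 with THAP5, DNAJC10 with PDE1A, MANF with DOCK3 and VCP with FANCG. DDIT3 also adjoins LOC128125814. No such share is given here for the 8610 coding genes marked in lipid overload, so 9 of 33 cannot be called particular to these genes.

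Inside the genes, away from both ends, peaks were fewer. In lipid overload 7 of 40 genes (17.5%) had one, against 27.8% of coding genes, and in mock 5 (12.5%), against 12.8%. With inside peaks counted, 34 genes (85.0%, 70.2 to 94.3) were marked in lipid overload, against 58.0%, and 20 (50%, 33.8 to 66.2) in mock, against 24.2%. The peaks inside CANX, ASNS and PDIA6 lay at listed starts, so only part of the inside peaks were away from any start. The nearest peak outside a gene stood a median of 10.2 kb away in lipid overload and 48.9 kb in mock, against 21.5 and 75.9 kb for coding genes. The range was 1.61 to 203 kb in lipid overload and 1.61 to 1850 kb in mock, where DNAJC10 was the most isolated.

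Promoter base composition went with marking in these genes and in coding genes at large. The 14 genes with a listed promoter and a gene-end peak in both lists had a median of 68.2% G+C and 31.5 CpG in 300 bases. The 16 marked in lipid overload only had 65.7% and 27.5, and the 7 without a gene-end peak in lipid overload 58.0% and 17. Over coding genes the medians were 66.0% and 27 for both lists, 66.0% and 27 for lipid overload only, and 58.3% and 13 without a peak. TRIB3, at 77.0% G+C and 38 CpG, was unmarked all the same, while CREB3L3 had 6 CpG. Marking was counted here at gene ends, which need not be the promoter measured. Of the 7 genes without a gene-end peak in lipid overload, PDIA6 had a lipid-overload peak over a listed promoter and EDEM2 a mock peak. The part of base composition in the marking was not tested.

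Another 67 genes of the same pathways were listed by role. Of these 17 were marked at an end in mock (25.4%, 15.5 to 37.5), against 13.4% of coding genes, and 51 after lipid overload (76.1%, 64.1 to 85.7), against 43.4%. Among folding genes 6 of 18 and 15 of 18 were marked, led by ERP29 with 13 and 47 fragments (34.5 to 62.5 in lipid overload) and FKBP2 with 33 (22.7 to 46.3) in lipid overload only. Among sensors and factors 2 of 9 and 8 of 9 were marked, led by TMBIM6, an ER membrane protein that restrains cell death, with 12 and 42 (30.3 to 56.8), and the ATF6 protease gene MBTPS1 with 7 and 21. For the ATF4 arm the counts were 3 and 14 of 20, led by DDIT4 with 17 and 43 (31.1 to 57.9) and AARS1 with 14 and 25. For degradation they were 6 and 14 of 20, led by the ligase gene RNF5 with 11 and 28 and FAF2 with 6 and 27. The 6 of these ATF4 arm genes without a gene-end peak in either list were ATF3, EIF2AK4, NUPR1, SHMT2, SLC7A11 and VLDLR.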

How the data were processed

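γH2AX CUT&Tag of 100000 HepG2 cells with 14 PCR cycles, per the labels' protocols, gave 1 library per condition. The submitters' processing notes name FastQC, BWA, MACS2 2.1.2, deepTools and build hg38; the settings used and whether IgG served as control were not given in the sources used here. Peaks were called separately in each sample. The authors deposited, for every peak, a score, a fold (a linear ratio) over local background, the −log10 of p and of q, and the summit position. No peak had a −log10 q under 1.3.

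Fragments over a summit were solved from the deposited fold and −log10 p (fold is fragments plus 1 over local background plus 1, p the Poisson tail above the fragments). A whole number was found for 100% of peaks within 0.0001 in −log10 p, and for 100% of simulated peaks. Depth ratio: the genome backgrounds, 0.121 and 0.289 fragments, over fragment lengths of 137 and 124 bp, which were inferred from the steps of the local background. For mock peaks with a like background, the lipid-overload background was divided by the ratio of genome backgrounds, 2.39, and the fragments by 2.62. Genes came from the RefSeq table (GRCh38.p14), chromosomes 1 to 22 and X, with 153 coding genes over 1 Mb out of position order left out. Gene ends are 1 kb either side, and 1 bp of overlap counts. Overlap used numpy 2.4.6 and intervals scipy 1.17.1.

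The members, roles, element search and further genes were chosen with earlier results of these data known. Members with the most lipid-overload fragments in each role (up to 6), those marked in mock only or most in mock, and the 2 strongest further genes a role are given in full; others were named for their role. Gene names at shared ends, the comparison of element matches under peaks and of promoters under peaks, and the 6 further ATF4 arm genes without a peak were added after values were seen.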

Additional observations from a re-analysis of the deposited data

How the results depend on the processing

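Gene-end counts of the members, their roles and the further genes, member counts at an end or inside, and the median ratio were recomputed with a −log10 q or fold of at least 5, equal list lengths, lipid-overload fragments scaled by depth, gene ends of 3 kb, summits in place of peaks, and listed starts only. Element matches, inside peaks alone, summit positions and shared ends were not recomputed, nor were counts at an end or inside with listed starts only, nor the ratio at equal list lengths, scaled by depth or by summits. Of 114 recomputed values, 100 stayed within 1.5 times. With −log10 q of at least 5, members marked in mock fell to 5, in both lists to 5 and at an end or inside in mock to 6. By role the mock counts were then 0 for sensors, 3 for chaperones, 0 for the ATF4 arm and 2 for degradation, the ATF4 arm had 3 in lipid overload, and further genes 9 in mock. The ATF4 arm, which had the smallest mock count, had 0 in mock and 3 in lipid overload with a fold of at least 5. At equal list lengths it had 3 in lipid overload. In mock it had 3 with gene ends of 3 kb and 2 with listed starts only. A higher threshold leaves fewer peaks by construction; otherwise the cause was not tested. Members were marked more often than coding genes in both lists under each of these settings. No paired analysis was possible because each group has 1 sample, and no sample could be left out. Mock depth limits what can be said of sites listed in lipid overload only.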
